A study of Homo sapiens with 26 samples.

Results

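Src-family kinases, RAS proteins and G protein alpha subunits are signalling proteins that lipids hold on the cytoplasmic face of the plasma membrane. The mRNAs of 9 of them were followed here: 4 Src-family kinases (LYN, SRC, FYN and YES1), 2 RAS proteins (HRAS and NRAS) and 3 alpha subunits (GNAI3, GNAQ and GNAS). They were chosen by name, as the products that share the inner leaflet with the inside constructs of the study. The choice was made with earlier results of these data known. All 9 were found by symbol among the 25745 genes of the deposited matrix, and all 9 were among the 22284 genes tested.

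The study used APEX-seq, in which APEX2, an engineered peroxidase, tags RNA in its vicinity with biotin so that the tagged RNA can be captured on streptavidin beads. HEK293T cells, a human embryonic kidney line with the SV40 large T antigen, stably expressed APEX2 fused to Lyn11 or Lck (the inside constructs) or to CD28 or PDGFR (the outside constructs). Labeled libraries and unlabeled controls numbered 4 and 4 for Lyn11 and 3 and 3 for Lck, CD28 and PDGFR alike, 26 in all. The labels give every sample biotin-phenol for 30 min and then 1 mM hydrogen peroxide for 1 min, controls included. The step that was omitted in the controls, the promoter of the fusions and whether each line was 1 clone or a pool were not given in the sources used here. The design text calls the libraries biological replicates, and nothing further says that they came from separate cultures, so p-values measure only the spread between these libraries.

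Src-family kinases phosphorylate tyrosines downstream of receptors and adhesion sites and are anchored by a myristate on their N-terminal glycine, in most members together with palmitates on nearby cysteines. RAS proteins are GTP-driven switches upstream of the MAP kinase cascade, anchored by a farnesyl group on a cysteine near their C-terminus and by palmitates on cysteines beside it. G protein alpha subunits carry signals from seven-pass receptors to effectors such as adenylyl cyclase and phospholipase C, and are held by palmitate, to which the Gi class adds myristate. These proteins are made on free ribosomes and reach the membrane after translation, in contrast to receptors made at the endoplasmic reticulum.

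The coding ends that carry the anchors are shown because they are what the members have in common with the inside constructs, whose names come from the lipid-anchored kinases Lyn and Lck. Each stretch is 33 bases, 11 codons, from GENCODE 29 transcripts on hg38, and each lies in 1 coding exon. Capitals mark a glycine codon directly after the start and every cysteine codon. The first set gives the start of the coding sequence, with LCK for comparison.

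SRC: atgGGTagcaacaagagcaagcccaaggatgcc
FYN: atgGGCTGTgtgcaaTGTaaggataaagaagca
YES1: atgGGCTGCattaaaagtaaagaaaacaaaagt
GNAI3: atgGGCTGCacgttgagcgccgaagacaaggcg
GNAS: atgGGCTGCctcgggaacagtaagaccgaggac
GNAQ: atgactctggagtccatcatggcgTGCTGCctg
LCK: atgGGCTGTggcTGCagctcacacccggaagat

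These lie at chr20:37384154-37384186 (plus strand) for SRC, chr6:111720019-111720051 (minus) for FYN, chr18:756795-756827 (minus) for YES1, chr1:109548721-109548753 (plus) for GNAI3, chr20:58891727-58891759 (plus) for GNAS, chr9:78031203-78031235 (minus) for GNAQ and chr1:32274330-32274362 (plus) for LCK. SRC has the glycine codon and no cysteine codon. FYN, YES1, GNAI3, GNAS and LCK have both a glycine codon and a cysteine at codon 3, FYN with a further one at codon 6 and LCK with one at codon 5. GNAQ has no glycine there and has cysteines at codons 9 and 10. GNAS, despite its glycine codon, is known as a palmitoylated and not a myristoylated subunit. The second set gives the last codons before the stop in the RAS genes.

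HRAS: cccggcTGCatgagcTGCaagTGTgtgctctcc
NRAS: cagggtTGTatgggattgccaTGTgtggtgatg

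These lie at chr11:532639-532671 for HRAS and chr1:114708538-114708570 for NRAS, both on the minus strand. The cysteine at codon 186 is the farnesylated one in each. HRAS has palmitoylated cysteines at codons 181 and 184, and NRAS has one at codon 181.

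Values are log2 FPKM as deposited, that is fragments counted per kilobase of a gene's exons and adjusted for library size, on a log2 scale. A difference of 1 is a factor of 2 on that scale. For labeling, "rose" and "fell" mean higher or lower in labeled than in control libraries. In APEX-seq tagged RNA is captured, so such a difference does not by itself give a change of level in the cells. Depth recovered from the values, in M (1e6) reads, ran from 18.94 to 34.14 for inside constructs (14 libraries) and from 11.1 to 15.89 for outside ones (12 libraries), so depth and side of the membrane cannot be told apart. The most genes at 0 reads were found in labeled CD28 replicate 2 (3159) and in PDGFR control replicate 2 (3031), against at most 1542 in any other library. The 30 replicate pairs differed by far more than sampling noise, and no library was treated as a duplicate. Of 7 embryonic kidney markers, 6 were in the matrix, with summed FPKM of 72.6 to 125 in labeled and 66.2 to 132 in control libraries. Fibroblast markers (4 of 6 in the matrix) summed to 5.37 to 11.3 and 5.62 to 10.7, epithelial carcinoma markers (3 of 6) to 1.22 to 3.86 and 1.34 to 3.60, and the 1 T cell marker in the matrix, CD3E, reached at most 0.759. No marker found in the matrix stayed under 10 reads in every library. Among the kidney markers, mean log2 FPKM was 5.64 for VIM and 0.64 for PAX2, so their sum is weighted to VIM. The sums alone do not establish a cell type.

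GNAI3, the alpha subunit that inhibits adenylyl cyclase, was the member that differed between labeled and control libraries. Its mRNA rose by 0.28 ± 0.066 log2 units (SE) when the labeled difference was averaged over the 4 constructs, a factor of 1.21 (limma, adjusted p = 0.0102). It was 1 of 9 members called on average, where 7.37% of all genes were called. In the single constructs 0 of 9 members were called, against 0.579% of all genes with Lyn11, 0.794% with Lck, 0.476% with CD28 and 2.13% with PDGFR. FYN, a Src-family kinase, differed in another comparison: its level was higher in the controls of the inside constructs than in those of the outside constructs, by 0.28 ± 0.068 (adjusted p = 0.0127), as 1 of 9 members beside 11.2% of all genes. For a labeled difference that was larger inside than outside, or the reverse, 0 of 9 members were called, beside 0.00449% of all genes.

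**Figure D1:**
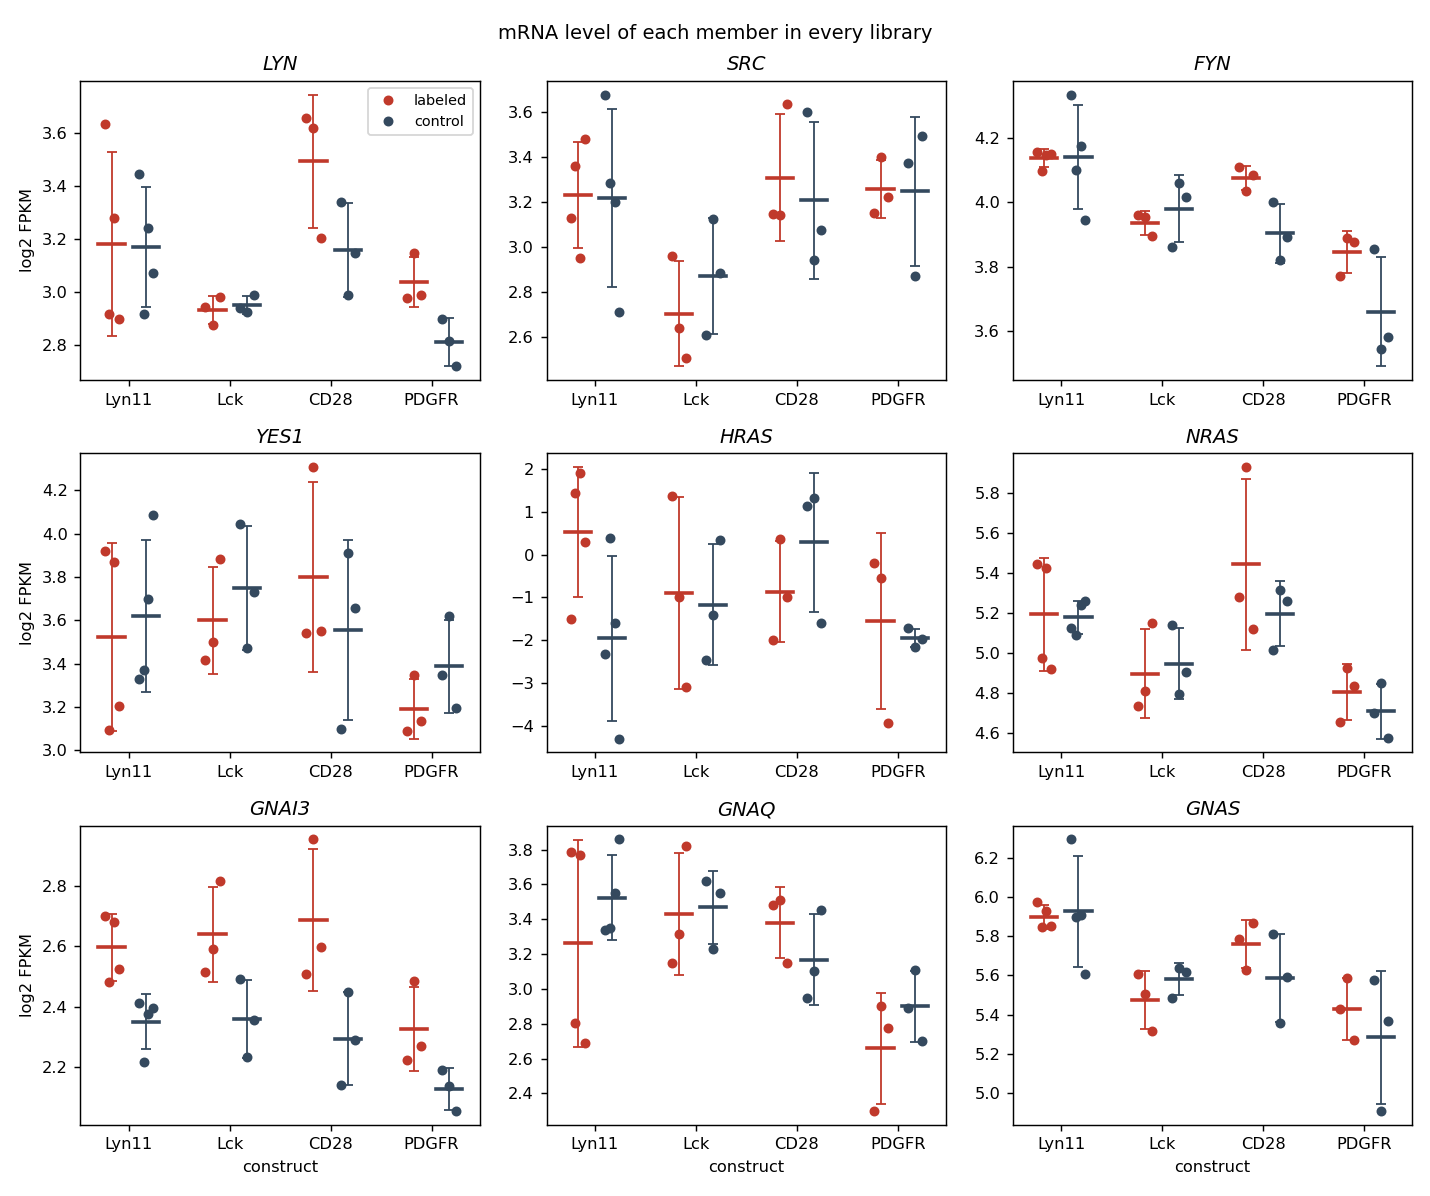
Level of each member mRNA in every library, in log2 FPKM, by construct, with labeled libraries in red and controls in blue. Horizontal bars are group means and error bars are SDs (n = 4 for Lyn11, 3 for the others), each panel has its own vertical scale, and the labeled GNAI3 points lie above the control points in all 4 constructs.

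The levels in the controls set the scale. Averaged over the 4 control groups, GNAS stood highest at 5.59 log2 FPKM, followed by NRAS at 5.01, FYN at 3.92, YES1 at 3.58, GNAQ at 3.26, SRC at 3.14, LYN at 3.02, GNAI3 at 2.28 and HRAS at -1.20. GNAS was above NRAS, NRAS above FYN, LYN above GNAI3 and GNAI3 above HRAS in each of the 13 control libraries. YES1 was above GNAQ in 12 of the 13, by 0.30 with an SD of 0.23. FYN was above YES1 in 9, GNAQ above SRC in 9 and SRC above LYN in 7 of the 13, so these neighbours were not separated beyond their spread.

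GNAS was above 97.5% and NRAS above 95.3% of all genes tested in mean level, and HRAS above 2.73%. FPKM divides by the merged exon length of a gene, and that length bears on this order. It was 27174 bases for GNAI3, the longest among the members and the length of its own coding transcript, of which 1065 bases code. GNAI3 therefore ranked next to last while holding 1621 to 4593 reads per library, against 584 to 2111 for LYN with 6185 bases. GNAS, with 13320 bases of merged exons, held 5467 to 32801 reads.

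LYN (ENSG00000254087.7, chromosome 8, 55879813 to 56014168, plus strand) gives its name to the Lyn11 construct. Labeled PDGFR libraries held 2.98, 3.15 and 2.99 log2 FPKM of LYN, and the PDGFR controls 2.90, 2.81 and 2.72. Every labeled library was above every control there, as in 7.53% of all genes, while the difference of 0.23 ± 0.17 did not pass the test (adjusted p = 0.616). With CD28 the labeled libraries held 3.66, 3.62 and 3.20 and the controls 3.34, 2.99 and 3.15.

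Labeled replicate 3 lay within the range of those controls, and the CD28 difference was 0.33 ± 0.17 (adjusted p = 0.397). With the inside constructs LYN differed by 0.01 ± 0.15 (Lyn11) and -0.02 ± 0.17 (Lck), with 95% intervals of -0.29 to 0.32 and -0.37 to 0.34. The Lck libraries lay close together, at 2.88 to 2.98 labeled and 2.92 to 2.99 in controls, and the 4 labeled Lyn11 libraries were wide apart, at 3.63, 2.92, 3.28 and 2.90.

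SRC (ENSG00000197122.11, chromosome 20, 37344685 to 37406050, plus strand) is the founding member of the family. Its labeled differences were 0.01 ± 0.20 with Lyn11, -0.17 ± 0.23 with Lck, 0.10 ± 0.23 with CD28 and 0.01 ± 0.23 with PDGFR, and labeled and control libraries overlapped in each. The average was -0.01 ± 0.11, with a 95% interval of -0.25 to 0.22. Its lowest library was a labeled Lck library at 2.51 and its highest a Lyn11 control at 3.68. YES1 (ENSG00000176105.13, chromosome 18, 721588 to 812546, minus strand), a broadly expressed kinase of the family, ranged from 3.09 to 4.31.

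YES1 differed by -0.10 ± 0.23, -0.15 ± 0.27, 0.24 ± 0.27 and -0.20 ± 0.27 in the same order of constructs, and by -0.05 ± 0.13 on average (95% interval -0.32 to 0.22). Of its merged exon bases, 3.0% are shared with AP001020.3 on the opposite strand. The sources used here do not give whether the libraries keep strand, so reads from such shared bases cannot be assigned to 1 gene.

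FYN (ENSG00000010810.17, chromosome 6, 111660332 to 111873452, minus strand), a kinase with roles in T cell and neural signalling, was the steadiest member. Its residual SD around the group means was 0.103 log2 units, and 0.794% of all genes had a smaller one. Lyn11 controls stood at 4.33, 4.10, 4.18 and 3.95 log2 FPKM, Lck controls at 3.86, 4.06 and 4.02, CD28 controls at 3.99996, 3.82 and 3.89, and PDGFR controls at 3.86, 3.55 and 3.58. PDGFR controls were mostly lowest and Lyn11 controls mostly highest, and the Lck and CD28 controls overlapped. In bulk RNA, fewer cells that express a gene and less RNA per cell cannot be told apart.

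The FYN difference of 0.28 ± 0.068 between the controls of the 2 sides was one of 2490 called in this comparison, 7.34% of all genes being higher inside and 3.84% lower. Of 6 embryonic kidney markers tested, 2 were also higher in the inside controls and 0 lower, with a list median of -0.02. They were VIM by 0.60 ± 0.13 (adjusted p = 0.00476) and CDH2 by 0.57 ± 0.099 (adjusted p = 0.00113), and the part of the list in the FYN difference was not tested. Lines, depth and side change together between these groups, and their parts cannot be told apart. Called under each of the 35 alternatives in processing, it ran from 0.24 to 0.36. In the F test for any difference among the 4 control groups, where 7.28% of all genes were called, FYN was again the 1 member called (adjusted p = 0.0167). That F test call was lost without Lyn11 control replicate 3 (adjusted p = 0.0507), PDGFR control replicate 2 (0.0726) or PDGFR control replicate 3 (0.0635).

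The labeled FYN libraries stood at 4.16, 4.10, 4.15 and 4.15 with Lyn11, 3.96, 3.95 and 3.89 with Lck, 4.11, 4.03 and 4.08 with CD28, and 3.77, 3.89 and 3.88 with PDGFR. All CD28 labeled libraries were above all CD28 controls, as in 7.44% of all genes, and the other constructs overlapped. The labeled differences were 0.00 ± 0.086 with Lyn11, -0.04 ± 0.099 with Lck, 0.17 ± 0.099 with CD28 and 0.18 ± 0.099 with PDGFR. The inside difference minus the outside one was -0.20 ± 0.096, with an unadjusted p of 0.0493 and an adjusted p of 0.750.

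HRAS (ENSG00000174775.16, chromosome 11, 532242 to 537287, minus strand) had the lowest and most variable values of the members, and whether all its reads were counted was not tested. It held 1 to 169 reads per library, and 99.6% of all genes had a smaller residual SD than its 1.65 log2 units. Lyn11 labeled libraries stood at -1.51, 1.43, 1.89 and 0.29 log2 FPKM (14, 122, 169 and 52 reads), and Lyn11 controls at -2.32, 0.38, -1.59 and -4.30 (10, 55, 14 and 1 reads). Labeled replicates 2 and 3 were above all controls, and labeled replicates 1 and 4 were below the highest one.

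The HRAS difference with Lyn11 was 2.49 ± 1.10, a factor of 5.61, and did not pass the test (unadjusted p = 0.0350, adjusted p = 0.763). Lck libraries overlapped widely, at 1.37, -0.98 and -3.09 labeled against -2.45, -1.41 and 0.34. CD28 libraries stood at -1.99, 0.37 and -0.98 labeled against 1.12, 1.32 and -1.59 in controls. PDGFR libraries stood at -0.20, -0.54 and -3.93 labeled, against -1.72, -2.15 and -1.98. The spread within groups was as wide as the differences between them, and with this spread a difference of 1 log2 unit in HRAS was not detectable: the 95% interval with Lck ran from -2.38 to 2.92.

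NRAS (ENSG00000213281.4, chromosome 1, 114704469 to 114716894, minus strand) was abundant, with 1523 to 4871 reads per library. Its labeled differences were 0.01 ± 0.16 with Lyn11, -0.05 ± 0.18 with Lck, 0.25 ± 0.18 with CD28 and 0.10 ± 0.18 with PDGFR, with overlap in each. The average of 0.08 ± 0.087 had a 95% interval of -0.11 to 0.26. CD28 labeled replicate 2 held the highest NRAS value, 5.93, against 5.28 and 5.12 in the other 2 labeled CD28 libraries.

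GNAI3 (ENSG00000065135.10, chromosome 1, 109548611 to 109618321, plus strand) stood at 2.70, 2.48, 2.68 and 2.52 log2 FPKM in labeled Lyn11 libraries and at 2.41, 2.22, 2.38 and 2.40 in their controls. Labeled Lck libraries held 2.51, 2.59 and 2.82 against 2.49, 2.23 and 2.36. Labeled CD28 libraries held 2.51, 2.95 and 2.60 against 2.14, 2.45 and 2.29, and labeled PDGFR libraries 2.22, 2.49 and 2.27 against 2.19, 2.14 and 2.05. In each of the 4 constructs the lowest labeled library was above the highest control, by a few hundredths of a log2 unit.

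Of all genes tested, 3.4% had labeled libraries above controls without overlap with Lyn11, 12.9% with Lck, 7.44% with CD28 and 7.53% with PDGFR, and 0.512% did so in all 4 constructs. GNAI3 was the 1 member in that last set. Among members, non-overlap was seen for GNAI3 alone with Lyn11 and Lck, for GNAI3 and FYN with CD28, and for GNAI3 and LYN with PDGFR. No member had all labeled libraries below all controls in any construct, which 1.91% of all genes had with Lyn11, 13.2% with Lck, 6.59% with CD28 and 6.39% with PDGFR.

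The GNAI3 difference was 0.25 ± 0.12 with Lyn11 (adjusted p = 0.878), 0.28 ± 0.14 with Lck (0.792), 0.39 ± 0.14 with CD28 (0.206) and 0.20 ± 0.14 with PDGFR (0.564), none of which passed the test. At an unadjusted p under 0.05 these 36 member comparisons held 2 with Lyn11 (HRAS and GNAI3) and 1 with CD28 (GNAI3), and limma-voom on the recovered reads also called 0.

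The GNAI3 average was called under all 36 alternatives in processing, from 0.25 to 0.32 with adjusted p from 0.000868 to 0.0270. Its residual SD was 0.140, with a smaller one in 3.64% of genes, and 14.0% of all genes had a larger average difference. The inside difference minus the outside one was -0.03 ± 0.13, with a 95% interval of -0.31 to 0.24. Of the merged exon bases of GNAI3, 7.9% are shared with exons of other genes: 1339 bases with GNAT2 on the opposite strand, 596 with AL355310.1, 132 with AMPD2 and 75 with MIR197 on the same strand. The part of these reads in the difference was not tested.

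**Figure D2:**
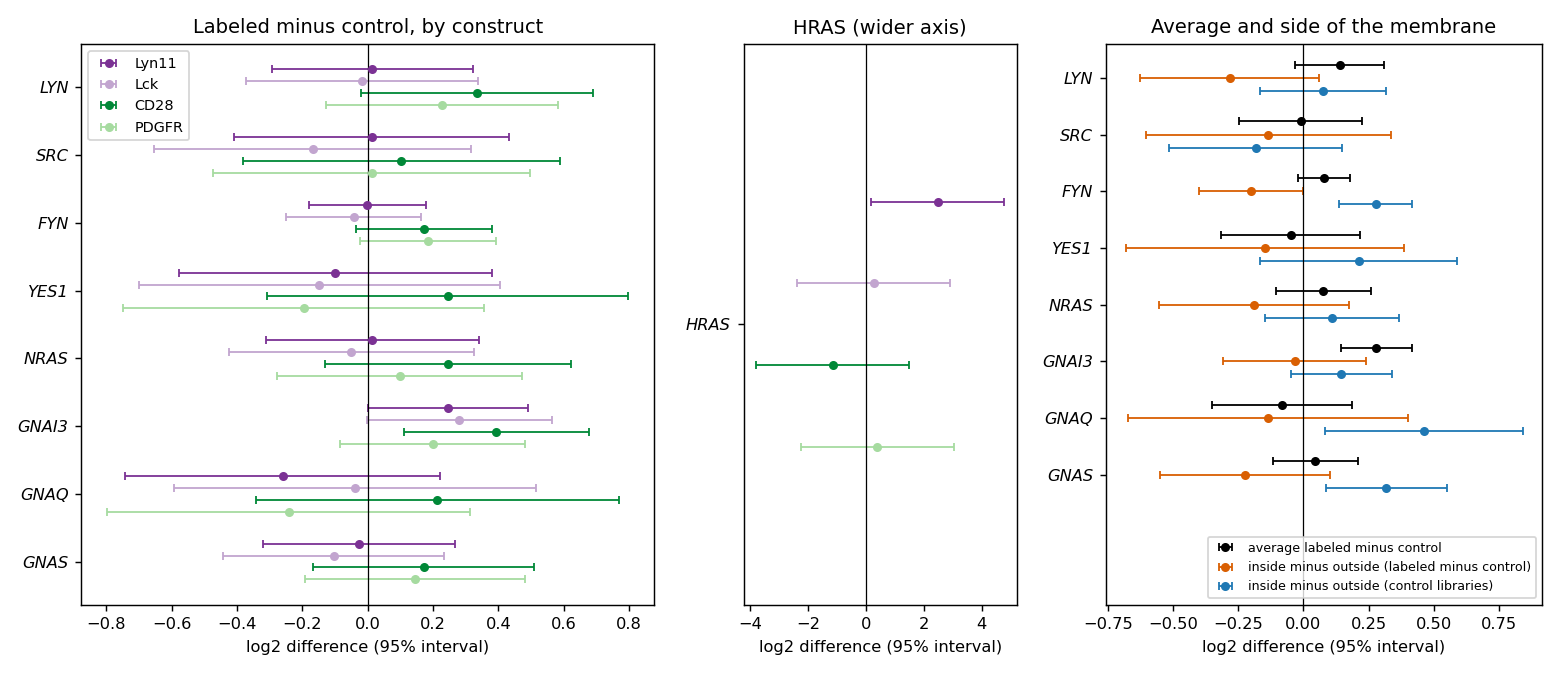
Differences in log2 FPKM with 95% intervals from the limma fit. The left panel gives labeled minus control by construct, the middle panel gives HRAS on a wider axis, and the right panel gives the average over the constructs (black), the inside minus outside contrast of those differences (orange) and inside minus outside in the controls (blue) for the 8 members other than HRAS. In the right panel the black interval of GNAI3 and the blue intervals of FYN, GNAQ and GNAS lie above 0 and the orange interval of FYN lies just below it. Of these, the average of GNAI3 and the control difference of FYN passed adjustment over all genes.

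GNAQ (ENSG00000156052.10, chromosome 9, 77716087 to 78031458, minus strand), which activates phospholipase C beta, stood at 3.34, 3.35, 3.55 and 3.86 log2 FPKM in Lyn11 controls, 3.62, 3.23 and 3.55 in Lck controls, 2.95, 3.10 and 3.45 in CD28 controls and 2.89, 3.11 and 2.70 in PDGFR controls. The inside controls lay above most outside ones, with CD28 control replicate 3 among them. The control difference between sides was 0.46 ± 0.18 and did not pass the test (adjusted p = 0.106). Labeled GNAQ values were spread over 2.69 to 3.78 with Lyn11 and 2.30 to 2.90 with PDGFR, and the labeled differences were -0.26 ± 0.23 (Lyn11), -0.04 ± 0.27 (Lck), 0.21 ± 0.27 (CD28) and -0.24 ± 0.27 (PDGFR).

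GNAS (ENSG00000087460.24, chromosome 20, 58839718 to 58911192, plus strand) encodes the subunit that stimulates adenylyl cyclase and has several imprinted first exons. Its controls stood at 6.29, 5.90, 5.91 and 5.61 with Lyn11, 5.49, 5.64 and 5.62 with Lck, 5.81, 5.36 and 5.59 with CD28, and 5.57, 4.91 and 5.37 with PDGFR. Lyn11 controls were mostly highest and all were above the PDGFR controls, while the other pairs of control groups overlapped. The control difference between sides was 0.32 ± 0.11, just short of the threshold (adjusted p = 0.0675), and it passed under 6 of the 35 alternatives.

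The labeled differences of GNAS were -0.03 ± 0.14 with Lyn11, -0.10 ± 0.16 with Lck, 0.17 ± 0.16 with CD28 and 0.14 ± 0.16 with PDGFR, and 0.05 ± 0.079 on average. Its merged exons share 8.7% of their bases with other genes, 1127 of them with GNAS-AS1 on the opposite strand. GNAS-AS1, a noncoding antisense transcript of the locus, fell by 0.51 ± 0.13 on average (adjusted p = 0.0175), with 87 to 670 reads per library. Labeled libraries were below controls without overlap with Lck, at 1.93, 2.04 and 2.32 against 2.64, 2.56 and 2.77, and with PDGFR, at 2.38, 2.49 and 2.13 against 2.78, 2.91 and 2.61. Of all genes, 13.2% with Lck and 6.39% with PDGFR did so. How reads of the shared bases were divided between the 2 genes was not tested.

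Seen side by side, the members leaned differently by construct, without a call. Of 9 members, 5 were positive with Lyn11, 2 with Lck, 8 with CD28 and 7 with PDGFR, with medians of 0.01, -0.04, 0.21 and 0.14, beside medians over all genes of -0.03, -0.04, 0.03 and 0.02 and positive shares of 45%, 44%, 52.3% and 52.9%. Quantile normalization gave 6, 4, 7 and 6 positive members, and median centring 6, 2, 8 and 7. The member median with CD28 became 0.07 under quantile normalization and 0.34 under median centring, and that with PDGFR 0.04 and 0.17. Median centring also moved the median of all genes with CD28 from 0.03 to 0.15, so the member median and the all-gene median both rose under it. Without the 2 libraries that stood apart, 7 members were positive with CD28 and 5 with PDGFR. Most lists of related genes, read below, leaned the same way with CD28. Positive there were 14 of 14 other RAS-like GTPases, 13 of 16 Src regulators and substrates and 22 of 28 lipid-anchor enzymes. RAS regulators and effectors had 20 of 27, other alpha subunits 6 of 9, and beta and gamma subunits 8 of 13. G protein effectors and regulators had 20 of 30 entries, and other Src-family kinases 1 of 2.

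In inside minus outside, 8 of the 9 labeled differences were negative and HRAS was positive, at 1.76 ± 1.23, and 44.7% of all genes were positive. The member median was -0.15 and that of all genes -0.04, and 0 of 9 members were called by limma, with 1, FYN, at an unadjusted p under 0.05. Limma-voom also called 0. The sign counts were the same under median centring and quantile normalization, while the member median became -0.22 under the former and -0.07 under the latter. In the fit without the 2 libraries that stood apart, GNAI3 was also positive, at 0.03. Most lists of related genes leaned negative too. Positive were 1 of 14 other RAS-like GTPases, 1 of 9 other alpha subunits and 5 of 28 lipid-anchor enzymes. Src regulators and substrates had 5 of 16, RAS regulators and effectors 9 of 27, and beta and gamma subunits 4 of 13. G protein effectors and regulators had 9 of 30 entries, and other Src-family kinases 2 of 2.

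Deviations of the libraries from their group means were set beside a score of base composition. A GC score was computed for each library as the mean log2 FPKM of genes with transcript GC above 55.3%, the upper quartile, minus that of genes below 41.9%, the lower quartile. Over the 26 libraries, the deviations of SRC (59.3% GC) correlated with those of the score at Pearson 0.91, of GNAS (58.9%) at 0.72, of FYN (48.4%) at 0.63 and of HRAS (65.8%) at 0.36. Members with low GC went the other way: LYN (45.7%) at -0.19, GNAI3 (41.8%) at -0.58, NRAS (38.4%) at -0.81, GNAQ (38.6%) at -0.82 and YES1 (37.7%) at -0.88. The order of these correlations largely followed the order of GC content, with HRAS apart. Over all genes, GC percent and the correlation with the score were themselves correlated at Pearson 0.761, where genes are not independent replicates. The score was built from the same genes by their GC, so a positive correlation is partly fixed in advance and tests nothing. By their GC, SRC, GNAS, HRAS, YES1, NRAS, GNAQ and GNAI3 were themselves among the genes that entered it. The points share libraries and depth, and the correlations are given as a description.

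**Figure D3:**
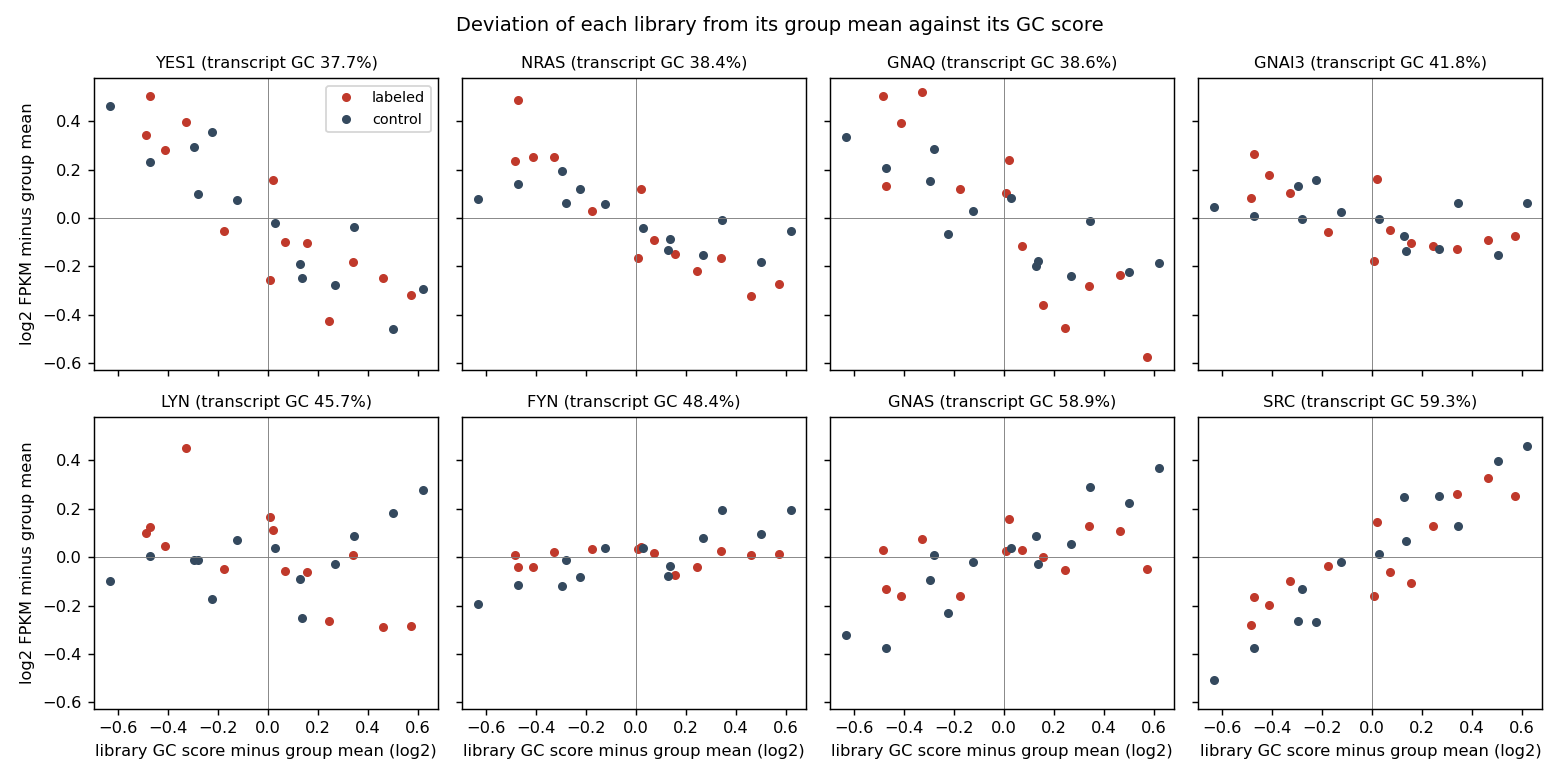
Deviation of each library from its group mean in log2 FPKM against the deviation of its GC score, for 8 members ordered by transcript GC content, with labeled libraries in red and controls in blue (26 points a panel). YES1, NRAS and GNAQ slope down, LYN shows little slope and SRC slopes up, and HRAS is left out for its wider spread.

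Mean GC scores ran from -0.13 in labeled Lck to 0.56 in labeled PDGFR libraries. With the score as a covariate, an alternative chosen after seeing the data, the GNAI3 average was 0.30 (adjusted p = 0.000868) and the FYN difference between control sides 0.30 (adjusted p = 0.000535). The same fit called GNAQ (0.35, adjusted p = 0.0320) and GNAS (0.38, adjusted p = 0.00292) between the control sides as well. Over all genes, that fit called 4400 between the control sides against 2490 without the score, and 2702 against 1642 on average. No further member was called for labeling in that fit.

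Pairs of members moved together or in opposite directions. Over the 26 libraries, log2 FPKM of FYN and GNAS correlated at Pearson 0.91, YES1 and GNAQ at 0.81, YES1 and NRAS at 0.75 and LYN and NRAS at 0.74, while SRC and YES1 stood at -0.62 and SRC and GNAQ at -0.55. Each member was also set beside 14882 genes with a mean log2 of at least 1. By Pearson correlation, GNAS was most like TNFAIP1 (0.97) and PPP2R5D (0.97), YES1 like SLC30A9 (0.97) and OSBPL8 (0.96), GNAQ like SHLD2 (0.96) and DNAJC13 (0.95), and SRC like APRT (0.95) and CCDC71 (0.95). LYN was most like FAM136A (0.94) and CCNB1 (0.93), FYN like DDB1 (0.94) and RBM23 (0.94), NRAS like CCDC117 (0.94) and DESI2 (0.93), and GNAI3 like TRA2B (0.89) and C1orf21 (0.87). HRAS had no close match, with NEU3 at 0.62 and S1PR2 at 0.60. The points again share library, construct and depth.

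Other genes of the same pathways were read by list, beside 4.29% of all genes higher and 3.08% lower on average. Among other Src-family kinases, 2 of 7 were tested and 1 rose, PTK6. The other, BLK, stood at -0.67 ± 0.23 (adjusted p = 0.0838), and the median of the pair was 0.07. None of 16 Src regulators and substrates and none of 14 other RAS-like GTPases passed, with list medians of 0.00 and 0.08. Of 27 tested RAS regulators and effectors 1 rose, RASGRP1 (median 0.00). Of 30 tested entries of G protein effectors and regulators, 2 of them for RGS5, 1 rose, RGS2 (median 0.01). None of 9 other alpha subunits (median 0.04) and none of 13 beta and gamma subunits (median 0.03) passed, and of 28 lipid-anchor enzymes and carriers 1 fell, ZDHHC4 (median 0.00). The all-gene median was -0.01.

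**Figure D4:**
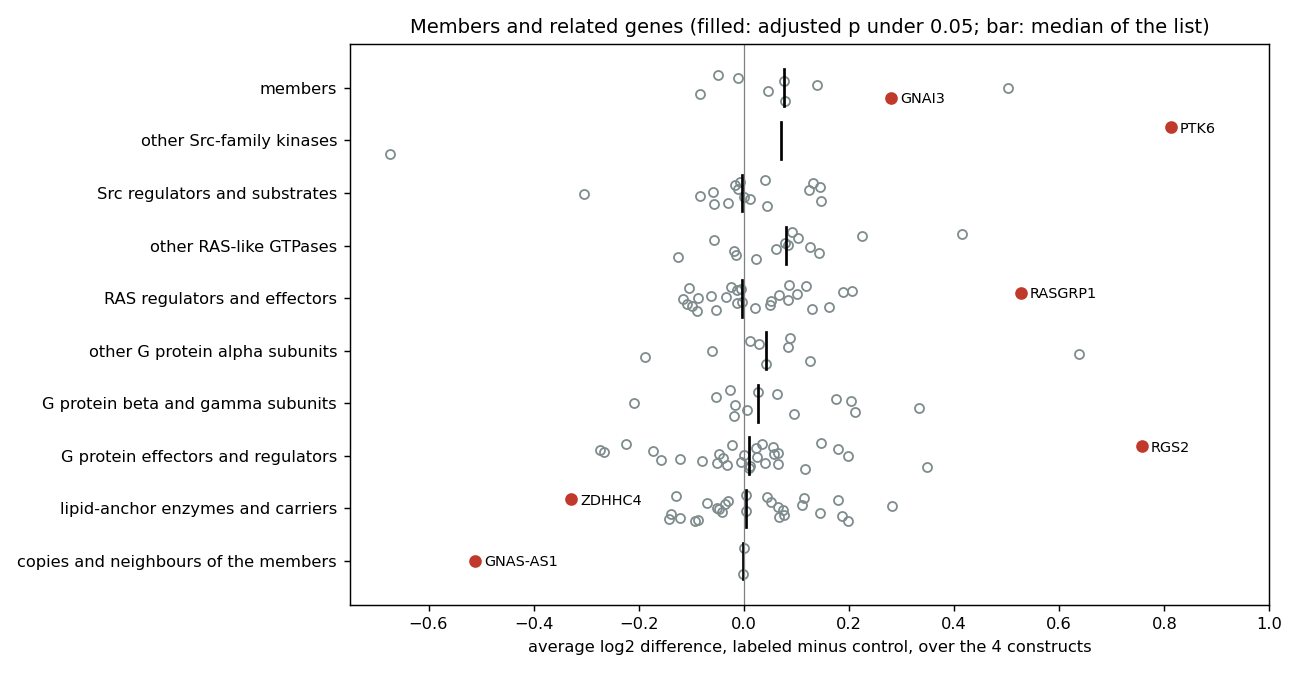
Average labeled minus control difference in log2 FPKM over the 4 constructs for the members and 9 lists of related genes, with the list median as a bar. There is 1 point per tested entry, and RGS5 has more than 1 entry. Filled points passed an adjusted p under 0.05: GNAI3, PTK6, RASGRP1 and RGS2 above 0, and ZDHHC4 and GNAS-AS1 below 0.

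RASGRP1, an exchange factor that loads RAS with GTP in answer to diacylglycerol and calcium, rose by 0.53 ± 0.088 on average (adjusted p = 0.000498). Lck labeled libraries held 2.40, 2.48 and 2.57 log2 FPKM against 1.74, 1.74 and 1.67 in controls. Labeled libraries were above controls without overlap in the other 3 constructs too, and 0.512% of all genes had this in every construct. The Lck difference of 0.77 ± 0.18 passed narrowly (adjusted p = 0.0490) and kept its call under 13 of 37 alternatives. It was lost without any 1 of the 6 Lck libraries (adjusted p from 0.139 to 0.235), with sizes of 0.72 to 0.81. It was also lost, with adjusted p from 0.0508 to 0.0677, without any 1 of Lyn11 labeled replicates 1 to 3, the Lyn11 controls, CD28 labeled replicates 1 and 3, the CD28 controls or the labeled PDGFR libraries. Losses under other alternatives are not listed here.

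PTK6, a kinase of the Src type without a myristoylated start, rose by 0.81 ± 0.20 on average (adjusted p = 0.0143) from low levels, 23 to 187 reads. Its CD28 difference was 0.08 ± 0.41, and those of the other constructs were 0.87 to 1.20. RGS2, which speeds GTP hydrolysis on Gq, rose by 0.76 ± 0.15 on average (adjusted p = 0.00282) and by 1.68 ± 0.32 with PDGFR (adjusted p = 0.00609). PDGFR labeled libraries held 2.14, 1.44 and 2.49 of RGS2 against 0.67, 0.00 and 0.36, without overlap, as in 7.53% of all genes. The PDGFR call of RGS2 was lost when PDGFR libraries were fitted alone (adjusted p = 0.418) and with limma-voom (0.105). RGS2 was also lower in the outside controls, with inside minus outside at 0.70 ± 0.22 (limma, adjusted p = 0.0409). The part of that control level in its PDGFR rise was not tested.

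PTPRA, a receptor phosphatase that removes the inhibitory phosphate from Src kinases, rose by 0.41 ± 0.086 with PDGFR (adjusted p = 0.0141), at 4.41, 4.23 and 4.33 labeled against 4.06, 3.74 and 3.95. That call was lost without PDGFR labeled replicate 1 (0.36, adjusted p = 0.0573) or PDGFR control replicate 2 (0.32, adjusted p = 0.0758), with weights by construct (0.112), with PDGFR libraries alone (0.561) and with limma-voom (0.126). PTPRA was also lower in the outside controls, with inside minus outside at 0.52 ± 0.059 (limma, adjusted p = 3.78e-05). The part of that control level in its PDGFR rise was not tested. ZDHHC4, of the family of palmitoyl transferases, fell by 0.33 ± 0.078 on average (adjusted p = 0.0111). Its labeled libraries were below controls without overlap with Lck and CD28, as in 13.2% and 6.59% of all genes. ZDHHC4 was higher in the inside than in the outside controls, by 0.38 ± 0.11 (limma, adjusted p = 0.0299). The part of that control level in its fall was not tested. Of the relatives of the alpha subunits, none of these 3 was called on average: GNAI2 differed by 0.08 ± 0.084, GNAI1 by -0.06 ± 0.11 and GNA11 by 0.04 ± 0.11. YES1P1, a pseudogene copy of YES1 with 35 to 170 reads, differed by 0.00 ± 0.16. LCK, LRRC56 and GNAQP1 were not analysed here.

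Between the control sides, calls in the lists were higher inside where not stated, beside 7.34% of all genes higher and 3.84% lower. They were 4 of 16 Src regulators and substrates (3 higher inside, 1 lower), 3 of 14 RAS-like GTPases and 4 of 27 RAS regulators and effectors. Further calls were 1 of 9 alpha subunits and 4 of 13 beta and gamma subunits (2 higher, 2 lower). The last were 4 of 30 entries of G protein effectors and regulators and 4 of 28 lipid-anchor enzymes. No list had a call for inside minus outside in the labeled difference.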

How the data were processed

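The deposited values are log2 FPKM for 25745 genes in 26 libraries. Per the submitters' processing notes, the authors aligned reads to hg38 with HISAT2 2.1.0 and used edgeR, named without a version. Identifiers were matched to GENCODE 29 (24075 with version, 1579 without, 91 unmatched), the source of symbols, coordinates and transcript GC. The values carry a prior count, so no pseudocount was added, and differences of low genes are understated. Reads were recovered by undoing that prior in 25736 genes, with a tolerance of 0.05 for a whole read. They give depth and the limma-voom alternative. Counting error falls with the recovered depth of each library.

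Groups came from the sample titles. Testing used limma 3.58.1 (R 4.3.3) on the 22284 genes above log2 0 in 3 or more libraries, with a mean for each of 8 groups, an intensity trend and 18 residual degrees of freedom. Tests were two-sided, adjusted by Benjamini-Hochberg over all genes within each comparison, and called under 0.05. Errors after ± are standard errors. The fit was run on simulated data with independent noise for each gene. Such noise lacks the shared shifts of libraries seen here, so it cannot show how often false calls arise in these data. Members and lists were chosen with earlier results of these data known. All members were named. Related genes were named when called on average, in inside minus outside, or in 1 construct without overlap. So were the 2 genes most like each member. Added after their values were seen were 3 near relatives, 1 pseudogene copy, BLK, VIM, CDH2, PAX2 and RGS5. Alternatives covered filters, scaling, weights, a replicate block and left-out libraries.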

Additional observations from a re-analysis of the deposited data

Results flagged for a closer look

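FYN in Lyn11 labeled replicate 2 stood apart from the other 3 labeled Lyn11 libraries, at 4.10 log2 FPKM against 4.15 to 4.16. The gap was large only beside the narrow range of that group. Dixon's test was applied to 18 groups of 4 libraries, 1 was past it, and chance passes about 1 in 20 groups.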

How the results depend on the processing

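The 72 tested member results gave 2602 values under alternatives. Of these, 2582 kept their call or lack of a call, 16 gained a call, 4 lost one and 0 reversed a call. A change of sign between values without a call was counted as kept, as for FYN with Lyn11 under median centring. Results of the F test have no direction. The count of members called between control sides, 1, became 2 under median centring or quantile normalization, 3 with the GC score, and 1 to 2 with 1 library left out. All-gene calls there were 2490, and 3199, 3580 and 4400 under those 3 settings. The count for any difference among control groups, 1, became 2 under the stricter filter, median centring or limma-voom, 3 with the GC score, 0 without the 2 libraries that stood apart, and 0 to 2 with 1 library left out, beside all-gene calls of 1623, and 1667, 2420, 1950, 4517 and 1485 under those 5 settings. The cause was not tested.

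Same-numbered libraries correlated at -0.288 to 0.166 around group means, so numbers were not taken as pairs. With a replicate block, 0 members were called in each construct and in inside minus outside, and 1 on average. All-gene calls became 60 against 129 (Lyn11), 64 against 177 (Lck), 29 against 106 (CD28), 290 against 475 (PDGFR), 1291 against 1642 (average) and 0 against 1 (inside minus outside), and ZDHHC4 lost its call (adjusted p = 0.05998). A block could not be fitted to comparisons of controls alone.

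All-gene calls also moved for Lck (74 under the stricter filter, 984 with Lck libraries alone, 1831 with weights by construct), CD28 (0 alone, 15 weighted, 21 with limma-voom, 42 to 464 with 1 library left out) and PDGFR (15 alone, 68 with limma-voom, 119 weighted, 130 under the stricter filter, up to 727 without 1 library). Lyn11 ran from 60 to 256, the average from 727 to 2702, inside minus outside from 0 to 8, the control sides from 1492 to 4400 and any control difference from 807 to 4517. Higher and lower calls split 39 and 67 with CD28 against 55 and 51 under median centring and 37 and 26 under quantile normalization, 169 and 8 with Lck against 405 and 79 under the latter, and 1635 and 855 between control sides against 2561 and 638 under median centring. With 3 or 4 libraries a group, differences of about 0.3 log2 units passed only for the steadiest members, and HRAS, at 1 to 169 reads, had the widest spread of the members.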
